A study of Mus musculus with 10 samples.

Results

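Transcripts of 8 genes of the transforming growth factor beta (TGF-beta) pathway were followed in mouse microglia, the resident macrophages of the brain. The genes were Tgfb1 (the ligand), Tgfbr1 and Tgfbr2 (its receptors), Smad2, Smad3 and Smad4 (the signal-carrying Smads), Smad7 (the inhibitory Smad) and Ski (a corepressor). They were taken by name from the deposited table, where they are 8 of 24453 rows, and all 8 reached the minimum of 10 RPM in 2 or more of the 10 libraries. RPM put the reads of each library on a common total.

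The RNA came from brains of untreated C57bl6 mice, from which microglia had been purified with magnetic beads. For ageing, 3 libraries of mice aged 15 months, called aged, stand against 3 of mice aged 10 weeks, called young. For Rab7, a small GTPase of late endosomes, 2 libraries labelled Rab7 deltaMG stand against 2 labelled Rab7 Control, all from mice aged 3 months. The series calls the former null mutants. The promoter or Cre line behind the deletion, like the genotype of the Control mice, was not given in the sources used here. The labels do not call the replicates separate animals, so p-values reflect a spread among libraries that may be partly technical.

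TGF-beta1 is secreted as a latent complex that integrins and accessory proteins activate. The ligand binds the type II receptor Tgfbr2, which phosphorylates the type I receptor Tgfbr1. Tgfbr1 phosphorylates Smad2 and Smad3, which join Smad4 and enter the nucleus, where Ski represses their targets, while Smad7 blocks and helps degrade the receptor. In the mouse brain, microglia need this signal to keep their homeostatic genes on.

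The depth behind the scaling was 6098281 to 9907460 reads per library, of which 1284411 to 1855047 lay in listed genes. Rab7 was examined first and did not check the labels. It was at 64.2 and 67.5 RPM under the control label and at 72.2 and 79.4 RPM under the deltaMG label (limma adjusted p = 0.668), so directions below rest on the labels. Microglia markers were high throughout, with 8 genes summing to 3170 to 5389 RPM. Neutrophil markers, 11 genes, summed to 460.3 to 4301 RPM, while 4 T cell markers summed to at most 0.762 RPM. The young libraries carried Xist at 1715 to 1771 RPM and the aged libraries at 0.127 to 0.940 RPM, where the Y-linked sum was 35.7 to 48.7 RPM, so age and sex cannot be told apart. Both kinds of transcript were present in the other 4 libraries. Xist was at 924 to 1410 RPM under the control label and 1171 to 1562 RPM under the deltaMG label. In the same order, Y-linked genes summed to 19.3 to 25.8 and 9.11 to 20.3 RPM. The part of this mix in the Rab7 comparison was not tested.

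The receptors are shown first by the sequence before their transcription starts, because Tgfbr1 is the member called below and its ratio to Tgfbr2 is followed there. Windows of 250 bases came from RefSeq (GRCm38.p6), which held 5 of the 8 genes. Each window was searched on both strands for the motif GGGCGG known as a GC box, for CAGAC from the Smad box core, for GAGGAAG from the PU.1 core and for TATAAA of the TATA box. Matches are in capitals, and no base lay in more than 1 motif. The windows are chr4:47352972-47353221 (plus strand) for the main Tgfbr1 start, chr4:47385966-47386215 (plus strand) for a second, internal start, and chr9:116175364-116175613 (minus strand) for Tgfbr2.
Tgfbr1, main start: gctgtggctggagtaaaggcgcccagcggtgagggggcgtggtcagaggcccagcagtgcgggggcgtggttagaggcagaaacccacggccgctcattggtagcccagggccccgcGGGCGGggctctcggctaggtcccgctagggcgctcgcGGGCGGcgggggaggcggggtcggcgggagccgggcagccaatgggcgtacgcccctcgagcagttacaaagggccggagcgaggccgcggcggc
Tgfbr1, internal start: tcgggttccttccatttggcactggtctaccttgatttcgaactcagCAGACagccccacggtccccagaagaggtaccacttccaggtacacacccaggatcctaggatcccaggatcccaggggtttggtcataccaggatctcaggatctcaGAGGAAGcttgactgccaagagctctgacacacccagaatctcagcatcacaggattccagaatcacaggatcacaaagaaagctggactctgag
Tgfbr2: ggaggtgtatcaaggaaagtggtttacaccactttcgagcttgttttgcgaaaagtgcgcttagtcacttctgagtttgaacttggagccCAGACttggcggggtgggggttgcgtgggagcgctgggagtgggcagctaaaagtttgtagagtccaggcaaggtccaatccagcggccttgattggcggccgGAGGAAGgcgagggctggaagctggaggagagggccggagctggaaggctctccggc
The main Tgfbr1 window was 74.8% GC and held 2 GC boxes and none of the other 3 motifs. The Tgfbr2 window was 58.4% GC and held 1 Smad box core and 1 PU.1 core, and the internal Tgfbr1 window also held 1 of each. Over all 32851 windows of this length, 32.7% held a GC box, 42.2% a Smad box core, 10.6% a PU.1 core and 12.4% a TATA box, and the median GC content was 52.4%. GC boxes numbered 5 in the window of Ski, 5 in that of Tgfb1 and 2 in that of Smad3. These windows were 87.6%, 75.2% and 69.2% GC, and GC-rich windows hold more such matches from their letters alone. The Ski window, chr4:155222536-155222785 (minus strand), reaches into the Ski locus given below. Smad2, Smad4 and Smad7 had no entry. A match describes letters and not a bound site, and the table does not say from which start reads came.

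Levels can be compared between genes only per length, as RPM per kb of annotated exons. On this scale the type I receptor led, with a mean of 108 RPM per kb for Tgfbr1 over the 10 libraries, rank 34 of 4027 tested genes with a length. Ski followed at 21.5 (rank 226) and Tgfbr2 at 19.5 (rank 264). The ligand and the Smads were lower, with Tgfb1 at 6.54, Smad3 at 5.55, Smad7 at 5.25, Smad2 at 3.19 and Smad4 at 2.83 RPM per kb. Per kb of annotated exons, both receptors were above the ligand and every Smad in all 10 libraries, and Smad4 was the lowest on average. The place of the ligand depends on the length used. Annotated exons of Tgfb1 cover 5042 bases and its longest coding transcript 2175, against 8187 and 8092 for Tgfbr2. Levels per kb of coding transcript were not computed, so the order of Tgfb1 and Tgfbr2 holds for annotated exons only. Smad4 rested on 62 to 97 reads per library and reached 10 RPM in 7 of 10, whereas the other members reached it in all 10.

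**Figure D1:**
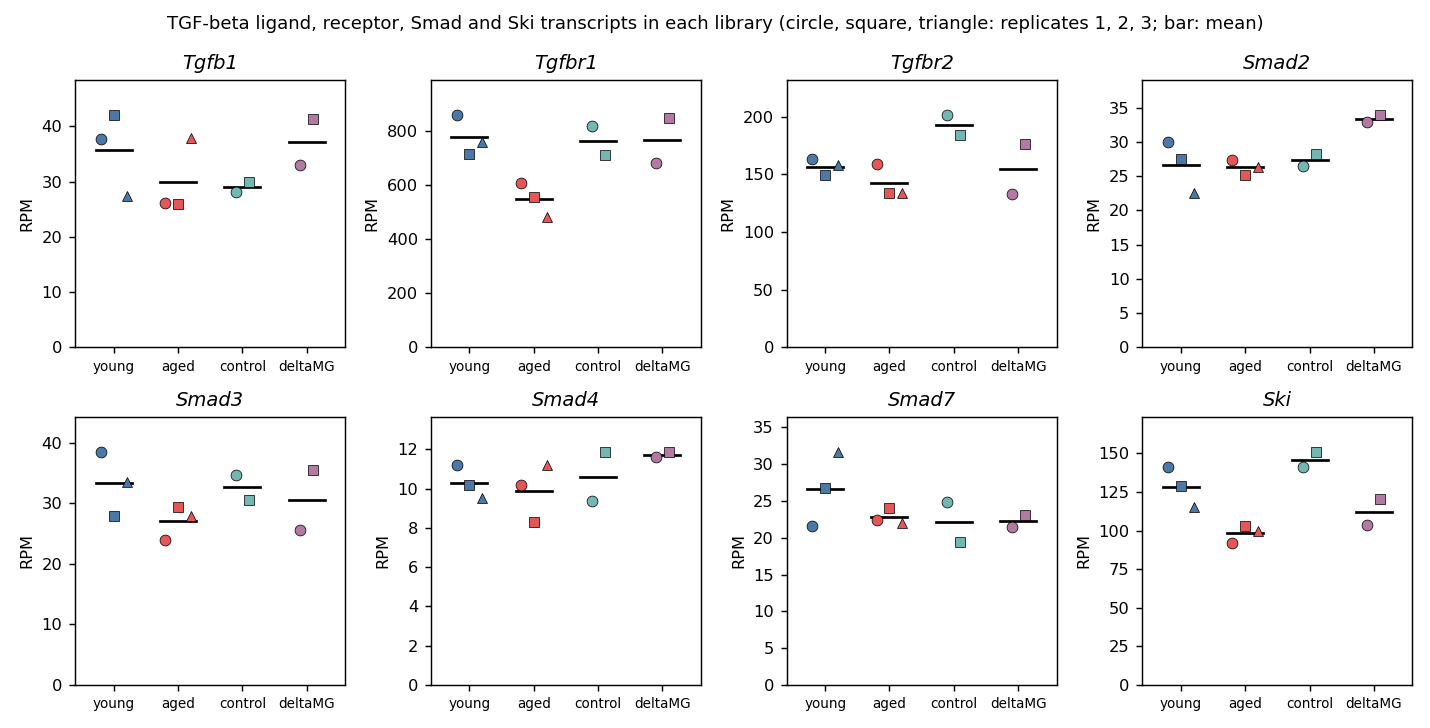
RPM of each of the 8 genes (vertical axes, from 0) in the 10 libraries, by group, with symbols for replicates and bars for group means. Tgfbr1 is lower in the 3 aged libraries (484 to 609 RPM) than in all others (683 to 861 RPM).

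The ageing comparison asked how microglial transcripts differ between 15 months and 10 weeks. Sex-linked transcripts differed along with age, so below "with age" means aged against young libraries and does not set age apart from sex. Tgfbr1 fell 1.42-fold in aged libraries, and it was the only member of the 8 that passed the test. Ski was lower in every aged library than in any young one, as 15.5% of all tested genes were, without passing. The fitted log2 fold change was negative for all 8 (for 6 with median-of-ratios rescaling), with a median of -0.22, while over all 4151 genes tested the median was -0.05 and 57.2% were negative. In this comparison limma called 6.14% of all genes (Benjamini-Hochberg adjusted p under 0.05), 2.99% lower and 3.16% higher, against 1 of the 8 members, called lower.

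Tgfbr1 (chr4:47353222-47414931, plus strand, GRCm38) was at 861, 715 and 762 RPM in young replicates 1, 2 and 3 and at 609, 555 and 484 RPM in the aged. The highest aged library lay below the lowest young one. The means were 779 RPM ± 74.7 and 549 RPM ± 62.9 (SD, n = 3 each), and the log2 fold change was -0.51 (standard error 0.14, 95% interval -0.79 to -0.22, limma adjusted p = 0.0424). All fold changes were computed from log2(RPM + 1), and in bulk RNA fewer cells of a type and less RNA per cell cannot be told apart. The 8 microglia markers summed to 4914 to 5389 RPM in young and 3170 to 3553 RPM in aged libraries. The 6 monocyte markers summed to 46.1 to 75.6 and 125.9 to 365 RPM in the same order, and the 11 neutrophil markers to 559 to 1425 and 965 to 4301 RPM. In aged replicate 3, which had the lowest Tgfbr1, neutrophil markers summed to 4301 RPM and microglia markers to 3170 RPM. The part of any of these in the result was not tested. Of 16 alternative settings, 5 kept the call. The adjusted p was 0.0562 with median-of-ratios rescaling, 0.0696 with quantile normalization, 0.170 without young replicate 1, 0.0683 without young replicate 2, 0.0867 without young replicate 3 and, for aged replicate 3, 0.133. It was 0.0639 and 0.0646 without control replicates 1 and 2, which enter through the shared spread, and over the libraries left out the log2 fold change ran from -0.58 to -0.42.

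**Figure D2:**
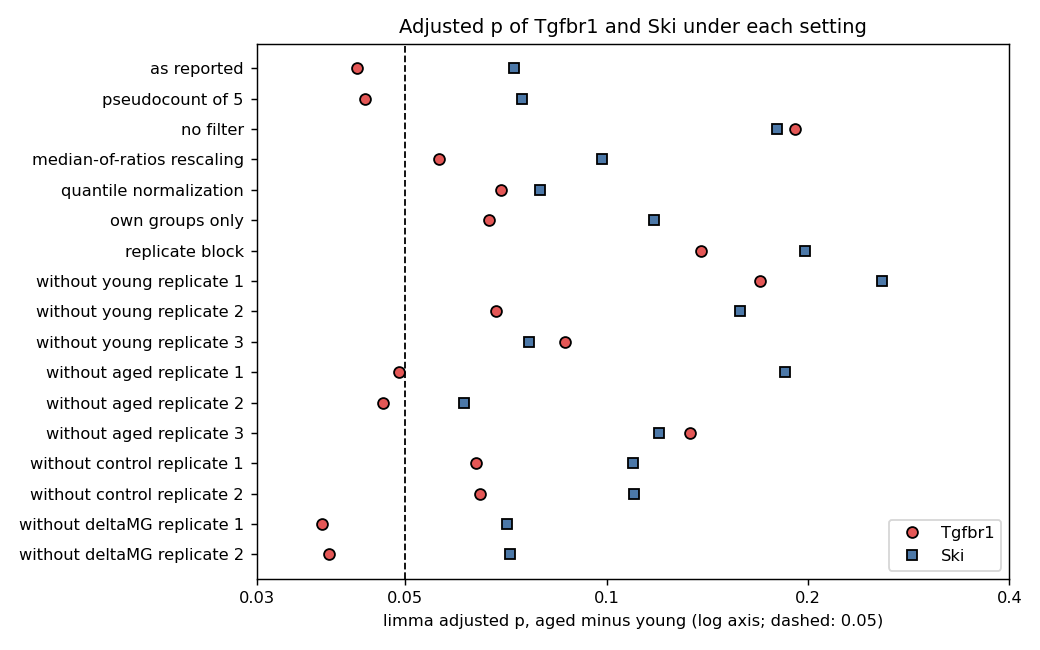
Limma adjusted p of Tgfbr1 and Ski in the ageing comparison (horizontal log axis, dashed line at 0.05) as reported and under 16 alternatives (rows). Tgfbr1 lies under the line in 5 of the 16 and Ski, at 0.0612 to 0.258, in none.

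Tgfbr2 (chr9:116084293-116175360, minus strand), the receptor that binds the ligand first, was at 163, 149 and 158 RPM in young and 159, 134 and 134 RPM in aged libraries. Aged replicate 1 lay inside the young range and the other two lay below it. The log2 fold change was -0.14 (standard error 0.13, 95% interval -0.42 to 0.13, limma adjusted p = 0.581).

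Ski (chr4:155154075-155222592, minus strand), which holds Smad targets silent, was at 141, 129 and 115 RPM in young and 91.6, 103 and 99.7 RPM in aged libraries. The groups did not overlap, as was the case for 23.9% of all tested genes, 15.5% of the genes being lower and 8.41% higher. The means were 129 RPM ± 12.96 and 98.1 RPM ± 5.82 (SD, n = 3 each), and the log2 fold change of -0.38 missed the threshold (95% interval -0.64 to -0.13, limma adjusted p = 0.0728). Ski and Tgfbr1 were the 2 members with separate groups and the 2 with an unadjusted p under 0.05, as 894 of the 4151 genes had.

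The ligand Tgfb1 (chr7:25687002-25705077, plus strand) was at 37.8, 42.1 and 27.3 RPM in young and 26.2, 25.9 and 38.0 RPM in aged libraries. The groups overlapped, young replicate 3 being low among the young and aged replicate 3 high among the aged. The log2 fold change was -0.25 (95% interval -0.64 to 0.15, limma adjusted p = 0.496). Neutrophil marker sums were 990.1, 1425 and 559 RPM in young and 1670, 965 and 4301 RPM in aged libraries, in the same order as Tgfb1 within each group. In the pairs labelled control and deltaMG the order was the opposite, and the part of neutrophil RNA in Tgfb1 was not tested.

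Among the Smads, the receptor substrate Smad3 (chr9:63646767-63757994, minus strand) was at 38.5, 27.9 and 33.5 RPM in young and 24.0, 29.4 and 27.9 RPM in aged libraries. The groups overlapped, at a log2 fold change of -0.28 (limma adjusted p = 0.349). Smad2 (chr18:76241580-76310963, plus strand), the other substrate, lay between 22.6 and 29.9 RPM in young and 25.1 and 27.4 RPM in aged libraries. All aged values were inside the young range, with a 95% interval of -0.31 to 0.28 for the log2 fold change of -0.01 (limma adjusted p = 0.972). The shared partner Smad4 (chr18:73639009-73703780, minus strand) lay at 9.50 to 11.2 and 8.28 to 11.2 RPM, a log2 fold change of -0.06 (limma adjusted p = 0.898). The signs of Smad2 and Smad4 turned with median-of-ratios rescaling, to 0.056 and 0.0039. The inhibitor Smad7 (chr18:75367529-75395935, plus strand) was at 21.6, 26.7 and 31.7 RPM in young and 22.4, 24.0 and 22.0 RPM in aged libraries. Its aged values sat inside the wider young range (log2 fold change -0.20, limma adjusted p = 0.527).

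**Figure D3:**
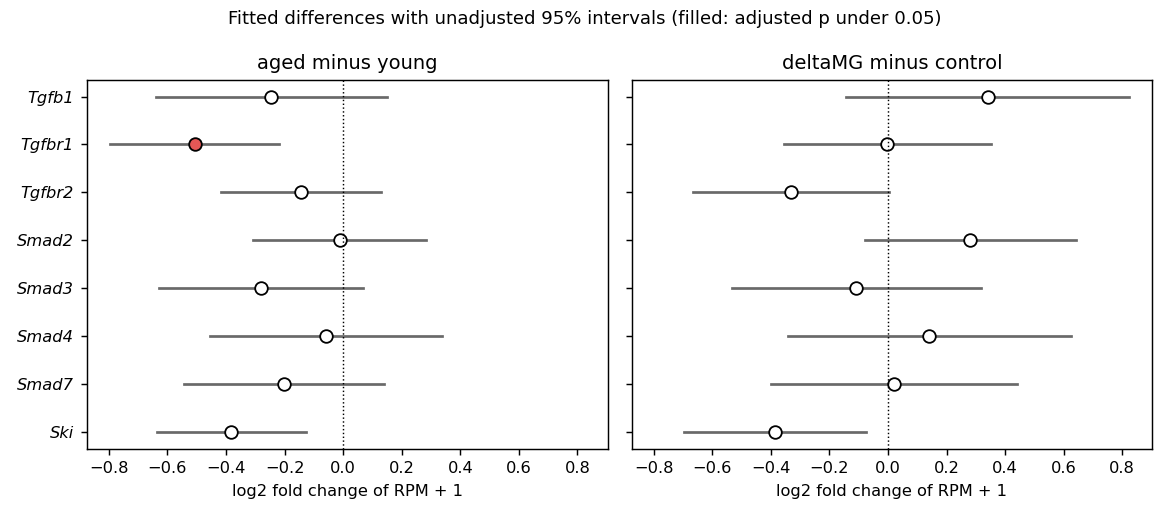
Fitted log2 fold change of each of the 8 genes (horizontal axes) in the ageing comparison and in the comparison of libraries labelled deltaMG and control, with unadjusted 95% intervals. Tgfbr1 in ageing, at -0.51, is the filled point, the 1 estimate with a limma adjusted p under 0.05.

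The Rab7 comparison set libraries carrying the deltaMG label against those carrying the control label. None of the 8 members passed the limma test, where 3.78% of all genes did (2.58% lower and 1.2% higher), and 1 had an unadjusted p under 0.05, as 780 genes had. The estimates were negative for 4 members and positive for 4. Groups did not overlap for 4 members, Ski and Tgfbr2 being lower and Tgfb1 and Smad2 higher in the libraries labelled deltaMG. With 2 libraries against 2, 51.8% of all tested genes had groups that did not overlap, 26.6% lower and 25.2% higher.

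Tgfbr1, called lower in aged libraries, was at 819 and 711 RPM under the control label and at 683 and 849 RPM under the deltaMG label. The values labelled deltaMG enclosed those labelled control. The log2 fold change was -0.00 with a 95% interval of -0.36 to 0.35 (limma adjusted p = 0.997). Its sign turned with the scaling, at 0.023 with median-of-ratios rescaling and 0.051 with quantile normalization. The partner receptor Tgfbr2 was at 202 and 184 RPM under the control label and at 133 and 177 RPM under the deltaMG label. Both of the latter were lower, with a log2 fold change of -0.33 (standard error 0.16, limma adjusted p = 0.273).

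Ski was at 141 and 151 RPM under the control label and at 103 and 120.2 RPM under the deltaMG label. Both values labelled deltaMG were lower than both labelled control. The means were 146 RPM ± 6.87 and 112 RPM ± 11.9 (SD, n = 2 each), and the log2 fold change was -0.39 (95% interval -0.70 to -0.07, limma adjusted p = 0.160). The unadjusted limma p of 0.0186 was the smallest among the members here.

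Tgfb1 was at 28.1 and 29.9 RPM under the control label and at 33.0 and 41.4 RPM under the deltaMG label. Both of the latter were higher, with a log2 fold change of 0.34 (limma adjusted p = 0.462), and neutrophil markers summed to 694 and 460.3 RPM against 1822 and 1186 RPM. Smad2 was at 26.4 and 28.2 RPM against 32.9 and 34.0 RPM, also without overlap (log2 fold change 0.28, limma adjusted p = 0.407). Smad3 was at 34.6 and 30.6 RPM under the control label and at 25.6 and 35.4 RPM under the deltaMG label. Smad4 was at 9.36 and 11.8 against 11.6 and 11.9 RPM, and Smad7 at 24.8 and 19.5 against 21.5 and 23.1 RPM. These 3 overlapped, with log2 fold changes of -0.11, 0.14 and 0.02 and limma adjusted p values of 0.844, 0.813 and 0.975.

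Whether the changes differed between the 2 comparisons was tested as a difference of effects, the change labelled deltaMG less the change with age. None of the 8 members passed, where limma called 4.79% of all genes, 2.67% below 0 and 2.12% above. For Tgfbr1 the difference was 0.50 on the log2 scale (95% interval 0.05 to 0.96, limma adjusted p = 0.218). Tgfb1 had the largest estimate, 0.59 (limma adjusted p = 0.312), and Ski the smallest, -0.00 (95% interval -0.41 to 0.40, limma adjusted p = 0.995). These comparisons do not share libraries, although they share the estimate of the spread.

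Ordered by mean, the groups rarely stood apart from their neighbours. The share of all genes with such separation is not given here, and groups of different comparisons also differ in age and in sex-linked transcripts. For Tgfbr1 the aged group was lowest and separate from the next, the group labelled control, and the upper 3 groups overlapped. For Ski the aged group was lowest and the rest overlapped in turn. Its highest value, 102.95 RPM, lay barely under the lowest value labelled deltaMG, 103.34 RPM. For Tgfbr2 the group labelled control was highest and did not overlap the young group below it. For Smad2 the group labelled deltaMG was highest and separate. Neighbouring groups overlapped throughout for Tgfb1, Smad3, Smad4 and Smad7.

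The balance of the receptors was then followed as the ratio of Tgfbr1 to Tgfbr2 per kb, a measure chosen after the values were seen. It was 6.60, 6.01 and 6.05 in young and 4.81, 5.20 and 4.52 in aged libraries. The aged ratios all lay below the young ones, and an exact two-sided permutation test gave p = 0.1, the smallest p that 3 against 3 allows. The ratio was 5.08 and 4.83 under the control label and 6.45 and 6.02 under the deltaMG label. The ratios labelled deltaMG were higher without overlap, with an exact p of 0.333, again the smallest possible. The lowest ratio was 6.01 among the young libraries and 6.02 among those labelled deltaMG, above the highest aged ratio of 5.20 and the highest one labelled control of 5.08.

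Tgfbr1 was also set against the microglia markers. Per 1000 RPM of the 8 marker transcripts it was at 160, 146 and 144 RPM in young and 171, 158 and 153 RPM in aged libraries. The groups overlapped (exact two-sided permutation p = 0.3). Under the control label it was at 171 and 164 RPM and under the deltaMG label at 167 and 162 RPM. This overlap rested on the marker Cx3cr1, which was called 2.67-fold higher under the deltaMG label. With Cx3cr1 left out of the sum, a setting chosen after the values were seen, Tgfbr1 was at 186 and 182 RPM under the control label and 219 and 214 RPM under the deltaMG label, higher without overlap. In ageing the groups still overlapped without it, at 181 to 204 RPM in young and 195 to 217 RPM in aged libraries. Tgfbr2 on this scale was at 29.8 to 30.4 RPM in young and 38.0 to 44.7 RPM in aged libraries, where this ratio was higher without overlap. The RPM of Tgfbr2 itself was no higher in aged libraries (log2 fold change -0.14). The marker sum in the ratio was lower there, at 3170 to 3553 RPM against 4914 to 5389 RPM in young libraries. Ski, Smad3 and Tgfb1 also had higher mean ratios in aged libraries (log2 differences 0.22, 0.32 and 0.35), with overlap. Under the control label the Tgfbr2 ratio was at 42.1 to 42.4 RPM and under the deltaMG label at 32.5 to 33.7 RPM. Without Cx3cr1 in the sum, however, it was at 45.9 to 47.2 and 42.6 to 44.6 RPM. All 8 markers are themselves genes known to need TGF-beta in mouse microglia, so this scale is not independent of the pathway.

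**Figure D4:**
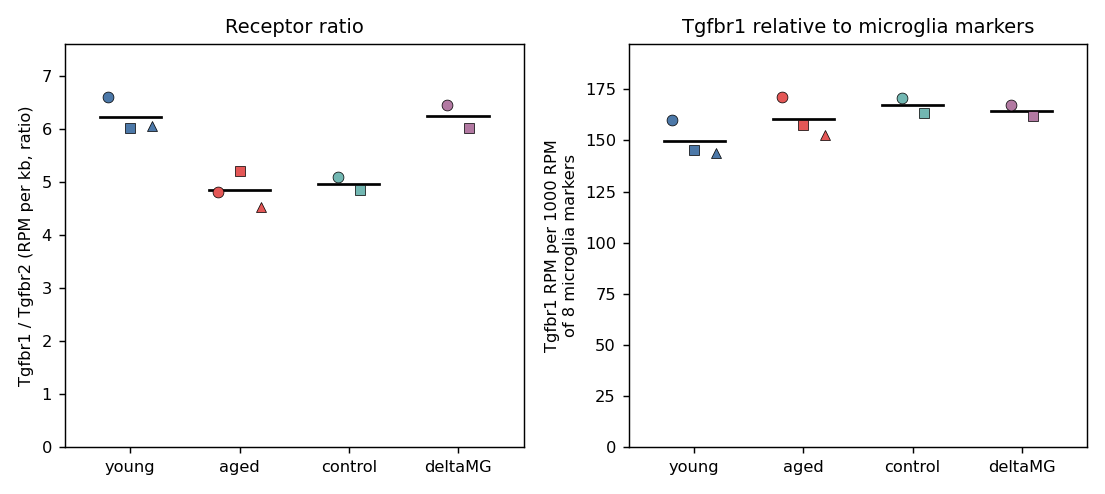
Left, the ratio of Tgfbr1 to Tgfbr2 per kb of exon, and right, Tgfbr1 RPM per 1000 RPM of 8 microglia markers, in each library by group, both axes from 0. The receptor ratio is 4.52 to 5.20 in aged and 6.01 to 6.60 in young libraries, while the marker-scaled level overlaps between young (144 to 160 RPM) and aged (153 to 171 RPM). The marker sum includes Cx3cr1.

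The genes whose pattern over the 10 libraries was most like that of each member were found by the root mean square distance of centred log2 values among 4150 others. For Tgfbr1 these were Dnajc18 (0.08) and Cttnbp2nl (0.09), against a median distance of 0.26 to 0.32 for the 8 members. Itgav, an integrin subunit that takes part in activating latent TGF-beta, was at rank 3. For Ski they were Ehd4 (0.07) and Dync1h1 (0.10), with the integrin subunit Itgb3 at rank 4. For Tgfbr2 the nearest was Sh3glb1 (0.06), with Skil, a relative of Ski, at rank 14. For Smad2, Smad4 was at rank 25, and Smad2 was at rank 19 for Smad4. Their distance of 0.11 was not far under the root mean square of each gene around its own mean, 0.16 and 0.15. Both varied little, so other genes that vary little lie near them too. The nearest pairs were Ubp1 and Ncoa6 for Tgfb1, Socs4 and Nuak1 for Smad2, Adnp and Abhd12 for Smad3, Ankhd1 and Ap1g1 for Smad4, and Nrm and Zfyve16 for Smad7. These distances describe the same libraries and carry no test.

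Upstream of the receptors, the list of ligands, latency and activation genes had 6 tested of 19, of which 2 fell and none rose with age, where 2.99% of all genes tested were called lower and 3.16% higher. Its median log2 fold change was -0.19. Both genes that fell encode integrin subunits. Itgav was at 74.1, 70.2 and 74.7 RPM in young and 49.8, 52.8 and 43.7 RPM in aged libraries, well apart. It fell 1.49-fold (log2 fold change -0.58, limma adjusted p = 0.0123, and 0.0627 without young replicate 1). Itgb3, its partner, was at 44.9, 43.0 and 36.6 RPM in young and 27.3, 29.2 and 31.5 RPM in aged libraries, again apart. It fell 1.40-fold (limma adjusted p = 0.0491), and the call was kept only without deltaMG replicate 1 (0.0499) when each library was left out, reaching 0.180 without young replicate 1. Nrros, which anchors latent TGF-beta1 on microglia, lay between 35.1 and 75.1 RPM in all libraries and was not called.

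Of 6 related receptors tested of 11, 1 fell, the activin receptor Acvr2b, against 2.99% of all genes, and the list median was -0.17. It was at 28.8, 28.9 and 23.9 RPM in young and 17.7, 20.2 and 15.5 RPM in aged libraries, without overlap. The fall was 1.503-fold (limma adjusted p = 0.0398), and it was lost without young replicate 1 (0.150), young replicate 2 (0.115), aged replicate 1 (0.0885), aged replicate 3 (0.112), control replicate 1 (0.0538) or control replicate 2 (0.0543). Bmpr2, a BMP receptor, lay at 181 to 284 RPM over all libraries and was not called. The other Smads had 2 tested of 4, neither called. Smad1, a substrate of BMP receptors, was at 15.9, 19.7 and 20.7 RPM in young and 13.8, 11.9 and 12.95 RPM in aged libraries (log2 fold change -0.50, limma adjusted p = 0.0900). Smad5, its relative, was at 29.0, 25.1 and 24.5 RPM in young and 19.6, 16.4 and 18.8 RPM in aged libraries (log2 fold change -0.50, limma adjusted p = 0.0680). Both were lower in every aged library than in any young one, as 15.5% of all tested genes were. Smad6 and Smad9 stayed under 1 RPM in all libraries.

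Of 16 tested of 21 Smad partners and feedback regulators, 1 fell and none rose, near the 6.14% called among all genes, with a median of -0.03. Ldlrad4, which limits the recruitment of Smads to the receptor, was at 20.6, 19.3 and 15.3 RPM in young and 8.30, 13.3 and 11.8 RPM in aged libraries. It fell 1.61-fold (limma adjusted p = 0.0497), a call that held only without aged replicate 2 (0.0218) and reached 0.183 without young replicate 1. Skil lay at 169 to 252 RPM and Pmepa1, another feedback inhibitor, at 107 to 187 RPM over all libraries, neither called. In the list of immediate targets 6 of 12 were tested, of which 2 rose and none fell, against 3.16% of all genes called higher, with a median of 0.37. Cdkn1a, the p21 inhibitor of the cell cycle, was at 6.62, 6.07 and 6.05 RPM in young and 15.98, 18.5 and 18.0 RPM in aged libraries, far apart. It rose 2.55-fold (log2 fold change 1.35, limma adjusted p = 0.000492). Tgfbi, a secreted matrix protein, was at 12.9, 11.2 and 10.2 RPM in young and 20.1, 23.5 and 37.3 RPM in aged libraries. It rose 2.18-fold (limma adjusted p = 0.0123), with the highest level in aged replicate 3, which also had the highest monocyte marker sum, 365 RPM, whose part was not tested. Both calls held without each library in turn.

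The list of 20 microglial genes known to depend on TGF-beta, all tested, had 11 that fell and none that rose with age, against 2.99% of all genes called lower. Its median was -0.53 and 19 estimates were negative. The list holds all 8 microglia markers, and age and sex cannot be told apart in these libraries. Monocyte markers summed to 46.1 to 75.6 RPM in young and 125.9 to 365 RPM in aged libraries and neutrophil markers to 559 to 1425 and 965 to 4301 RPM, and their part in these falls was not tested. Siglech, a sialic acid binding receptor, was at 150.5, 126 and 128 RPM in young and 90.7, 87.1 and 93.3 RPM in aged libraries, without overlap. It fell 1.48-fold (limma adjusted p = 0.0104, and 0.0702 without young replicate 1). Golm1, a Golgi membrane protein, fell 1.71-fold (limma adjusted p = 0.00462). The number that fell was 4 without young replicate 1 and 7 without young replicate 2, and it was 6 when aged replicate 1 and 7 when aged replicate 3 was left out.

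In the libraries labelled deltaMG none of the 36 tested members of the first 5 lists was called, where 3.78% of all genes were, a share that is near 1 of 36. The list medians ran from -0.08 to 0.13. Of these genes, the values of Itgb3 were 48.6 and 46.1 RPM under the control label and 28.1 and 33.9 RPM under the deltaMG label (limma adjusted p = 0.0581). Cdkn1a and Tgfbi, which rose in ageing, were also higher without overlap here, 1.68-fold and 1.92-fold (limma adjusted p = 0.0718 and 0.0891). With 2 libraries against 2, 25.2% of all tested genes were higher without overlap. Of the 6 tested immediate targets, 3 estimates were positive and 3 negative. Without aged replicate 3, 2 members of the ligand and activation list and 1 immediate target were called. In the TGF-beta dependent list 1 of 20 rose, the fractalkine receptor Cx3cr1, and none fell, against 1.2% of all genes called higher and 2.58% lower, with a median of -0.18. Cx3cr1 was at 398 and 437 RPM under the control label and at 965 and 1285 RPM under the deltaMG label. The values labelled control were also under those of the young libraries, 1068 to 1174 RPM, and of the aged, 689 to 741 RPM. The rise was 2.67-fold (limma adjusted p = 0.000158).

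**Figure D5:**
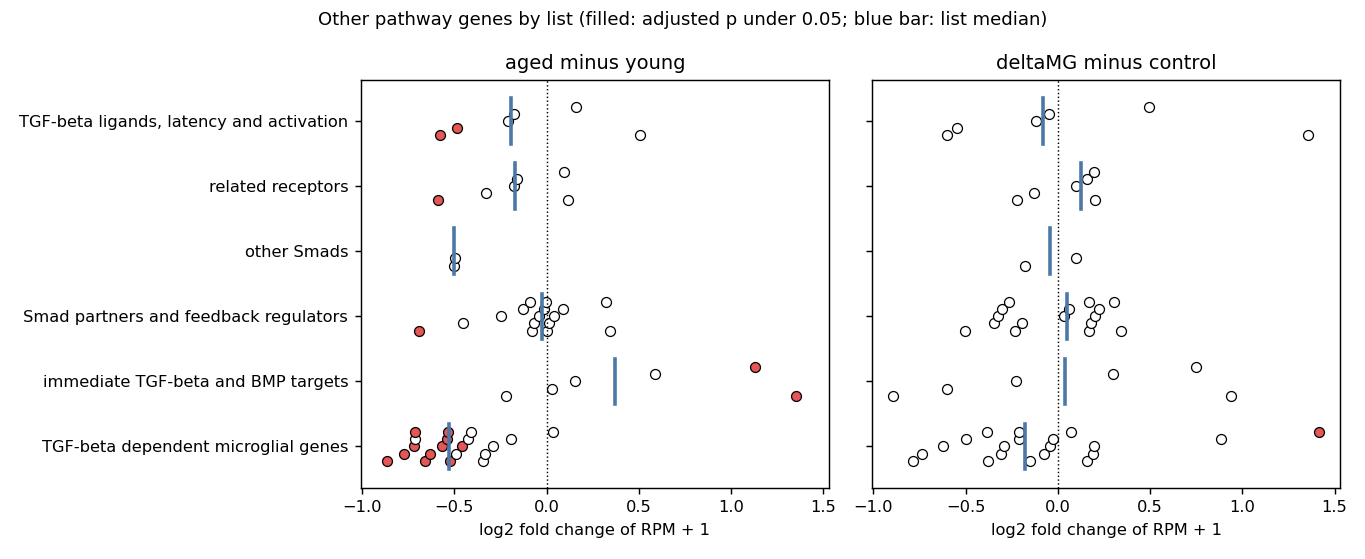
Log2 fold change (horizontal axes) of each tested gene of 6 pathway lists (rows) in both comparisons, filled where the limma adjusted p was under 0.05, with bars at list medians. In ageing the TGF-beta dependent microglial genes have a median of -0.53 with 11 filled points.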

How the data were processed

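Per the labels' protocols, total RNA of microglia went through NuGEN Ovation amplification and Ion Xpress Plus library preparation. GRCm38, mm10 and FastQC appear in the submitters' processing notes. The choice of aligner, counter, annotation and strand was not given in the sources used here, so sense and antisense reads cannot be separated. The authors' deposited values are RPM as judged from their steps above a constant of 0.0001 in every cell, 1 read being worth 0.101 to 0.164 RPM. Per library, 94.2% to 94.6% of values up to 500 reads lay within 0.05 of a whole read, so whole reads could not be recovered for all genes and no count model was used.

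Genes reaching 10 RPM in 2 or more libraries were tested on log2(RPM + 1) by limma (version 3.58.1, run under R 4.3.3). The model had 4 groups with a pooled variance (6 residual degrees of freedom), and p-values were adjusted by Benjamini-Hochberg over 4151 genes. The design left the unit unnamed, and its minimum of 10 was kept. Lengths and loci came from GENCODE M21 (GRCm38). No exon of a member overlapped another annotated gene. Replicates differed by more than sampling noise in every pair. Named genes were the members, the 2 nearest patterns of each, up to 6 called and 4 highest genes per list, and Rab7. A few genes that met this rule are not reported here. Nearest genes of lower rank were added after their values were seen. The members and lists were chosen with earlier results of these data known. On simulated data with 100 genes changed per fold size, 90% of 2-fold changes were called in ageing (4057 genes) and 62% in the comparison of libraries labelled deltaMG and control (4079 genes). Unchanged genes called numbered 7 and 8. The simulation gave every gene the same dispersion and left out differences in cell mix and sex. The largest change of a member in either comparison was 1.42-fold, so these shares do not give the chance that a member would be called. Alternatives covered pseudocount, filter, scaling, the samples fitted, a replicate block and leaving out each library. Figures were drawn with matplotlib 3.10.9.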

Additional observations from a re-analysis of the deposited data

How the results depend on the processing

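Over 16 alternatives each, Ski stayed negative in both comparisons without being called, as did Smad3, Smad7, Tgfb1 and Tgfbr2 in ageing. Tgfbr1 in ageing stayed negative and was called in 5. It lost its call without a filter (-0.51, adjusted p = 0.191, more genes tested), with median-of-ratios rescaling (-0.44, 0.0562), quantile normalization (-0.32, 0.0696), its own groups only (-0.51, 0.0668) and the replicate block (-0.51, 0.138), and ran from -0.58 to -0.42 over libraries left out. With a lone library left in a group, its spread was taken to equal that of the other groups.

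Signs turned for small estimates. With median-of-ratios rescaling Smad2 in ageing was 0.056, Smad4 in ageing 0.0039 and Tgfbr1 in the comparison labelled deltaMG 0.023, the last 0.051 with quantile normalization. Over libraries left out, ageing gave -0.12 to 0.073 for Smad2, -0.15 to 0.051 for Smad4 and -0.017 (without aged replicate 3) to 0.36 for Rab7. The comparison labelled deltaMG gave -0.16 to 0.15 for Tgfbr1, -0.34 to 0.12 for Smad3, -0.014 to 0.30 for Smad4 and -0.15 to 0.19 for Smad7. The difference of effects for Ski was 0.040 with quantile normalization and -0.11 to 0.11 over libraries left out, and -0.39 to 0.018 for Tgfbr2, -0.056 to 0.40 for Smad3 and -0.16 to 0.22 for Rab7. With Cx3cr1 left out of the marker sum, a setting chosen after seeing the data, Tgfbr1 relative to the markers went from -0.023 to 0.24 (log2) in the comparison labelled deltaMG. Otherwise the cause was not tested.

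Calls over all genes in ageing numbered 255, 119 without a filter, 121 with own groups and 66 with the replicate block, and 92 (without young replicate 1) to 419 (without aged replicate 2). The split of 131 higher and 124 lower became 224 and 92 with median-of-ratios rescaling. In the comparison labelled deltaMG they numbered 157, 86 without a filter, 510 with own groups and 69 with the replicate block, and 22 (without control replicate 1) to 307 (without aged replicate 3). For the difference of effects they numbered 199, 101 without a filter and 102 with the replicate block, and 61 to 261. Deviations from the group means had same-number correlations of -0.14, -0.24 and -0.39 in ageing and 0.12 in the other experiment. Such deviations cancel within a group. With 2 libraries a group, every pair therefore has a correlation of the same size, and 3 a group are also constrained. Whether the replicate numbers pair libraries was thus not settled. Under the block Tgfbr1 was the 1 member whose call changed. Among the smaller lists, called members in ageing went from 2 to 0 for ligands and activation, and from 1 to 0 for related receptors and for partners, under the block. The TGF-beta dependent list had 11 called in ageing, 2 without a filter, 7 with quantile normalization and 4 under the block. With own groups only, the comparison labelled deltaMG had 4 called in the ligand and activation list and 3 immediate targets, and the TGF-beta dependent list 6. Depth limits Smad4 most.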
